A study of Mus musculus with 14 samples.

Results

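The condensins and the type II topoisomerases were followed here as 10 genes, 8 condensin subunits (Smc2, Smc4, Ncapd2, Ncapg, Ncaph, Ncapd3, Ncapg2 and Ncaph2) with Top2a and Top2b. They were chosen by name, as the subunits of both condensins and both type II topoisomerase genes of the mouse. Earlier results of these data were known when they were chosen. All 10 were among the 34049 genes with any count, and all 10 were among the 24592 genes that passed the filter on low counts. RNA was sequenced in bulk from mouse hair follicle stem cells, the bulge cells of the resting follicle, sorted from trypsin-digested back skin by CD34, by a marker the labels spell CD45f, and by the absence of Ly-6A/E. Libraries came from wild type mice (WT) and from mice labelled Irx5KO, which lack Irx5 by their label, 18 days (P18) or 20 days (P20) after birth. The P18 groups had 3 libraries for each label and the P20 groups 4. No group had a treatment, and the sources used here give neither strain, sex nor Irx5 allele. Separate animals are not stated, so each p-value measures the spread between libraries, which may be technical.

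Condensins are ring-shaped motors that use ATP to pull chromatin into loops, and they shape and stiffen chromosomes for division. Condensin I and condensin II share an ATPase core made of SMC2 and SMC4. Condensin I adds NCAPD2, NCAPG and NCAPH and reaches the chromosomes once the nuclear envelope has broken down, whereas condensin II adds NCAPD3, NCAPG2 and NCAPH2 and is nuclear throughout the cell cycle. Type II topoisomerases pass one DNA duplex through a break in another and so remove tangles and supercoils. TOP2A is abundant in dividing cells and is needed to separate sister chromatids, whereas TOP2B is made in dividing and resting cells alike and acts at transcribed genes. Hair follicle stem cells are largely quiescent in the resting phase and divide when a new growth phase begins.

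The libraries carried a 6-digit code in their deposited data, read here as a date, with 2 codes at each age. Whether it marks a sort, a library preparation or a run is not given in the sources used here. At P20 the libraries numbered 1 and 2 had the later code and those numbered 3 and 4 the earlier code. At P18, WT 3 shared the later code with Irx5KO 2 and 3, and its deposited data also carry the word het; the other 3 P18 libraries had the earlier code. Total estimated counts ran from 13618367 to 70083873 per library. Irx5, the targeted gene, was at 31.5 and 18.7 CPM (counts scaled to a common library total) in P20 Irx5KO 1 and 2, against 126 and 73.8 CPM in P20 WT 1 and 2. It went against the labels on the other code, with 195 and 182 CPM in Irx5KO 3 and 4 against 39.0 and 43.0 CPM in WT 3 and 4. The log2 difference of Irx5, labelled Irx5KO minus labelled WT, passed on both P20 codes, in opposite directions. It was -1.996 (SE 0.40, edgeR adjusted p = 0.028) on the later code and 2.202 (SE 0.40, edgeR adjusted p = 0.00299) on the earlier code. The earlier-code effect minus the later-code effect was 4.20 (SE 0.57, edgeR adjusted p = 9.97e-05). Over all P20 libraries the difference in Irx5 between the labels did not pass (107 ± 94.6 against 70.5 ± 40.3 CPM, SD, n = 4 each, exact permutation test, two-sided, p = 0.486, where 0.0286 is the smallest p possible), and neither did that at P18 (69.2 ± 14.6 against 93.4 ± 38.1 CPM, SD, n = 3 each, exact p = 0.5, where 0.1 is the smallest). At P18 the other scalings put every Irx5KO-labelled library below every WT-labelled one, with 62.8 ± 14.1 against 116 ± 17.0 CPM at raw library sizes and 31.4 ± 7.48 against 55.7 ± 7.47 TPM (SD, n = 3 each, exact p = 0.1 each). For this reason a genotype below is always the one on the label. Cd34 was at 251 to 911 CPM and Ly6a, the gene of the Ly-6A/E antigen, at 0 to 2.77 CPM at raw library sizes, and the 9 bulge markers summed to 14675 to 37153 CPM. Odorant and pheromone receptor genes took 1.80%, 5.45% and 2.41% of the counts in P18 WT 1, P18 WT 2 and P20 WT 2 and 0.102% to 0.611% in the other libraries, and their TMM factors were 1.27, 1.76 and 1.39 against 0.802 to 1.01.

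Promoters are shown for both topoisomerase genes, for Ncapg, the condensin gene whose pattern was nearest to that of Top2a, and for Ncaph2, the condensin gene that varied least. The windows are from RefSeq on GRCm38.p6 and run from 250 bases before to 50 bases after the annotated start, 5′ to 3′ on the gene's strand. The Top2a window is chr11:99024140-99024439 (minus strand), the Ncapg window chr5:45669675-45669974 (plus), the Ncaph2 window chr15:89355469-89355768 (plus) and the Top2b window chr14:16364956-16365255 (plus). Capitals mark matches, on either strand, to CCAAT and to the CHR element (TTTGAA or TTCGAA), motifs known from the promoters of genes that are transcribed in G2 and mitosis; neither motif contains the other.
Top2a: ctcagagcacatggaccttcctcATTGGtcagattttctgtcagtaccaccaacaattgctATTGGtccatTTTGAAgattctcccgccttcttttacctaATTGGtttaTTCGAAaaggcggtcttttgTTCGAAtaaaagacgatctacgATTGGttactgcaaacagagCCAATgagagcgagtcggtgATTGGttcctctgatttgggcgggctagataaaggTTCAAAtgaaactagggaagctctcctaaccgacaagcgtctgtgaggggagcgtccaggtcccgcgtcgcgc
Ncapg: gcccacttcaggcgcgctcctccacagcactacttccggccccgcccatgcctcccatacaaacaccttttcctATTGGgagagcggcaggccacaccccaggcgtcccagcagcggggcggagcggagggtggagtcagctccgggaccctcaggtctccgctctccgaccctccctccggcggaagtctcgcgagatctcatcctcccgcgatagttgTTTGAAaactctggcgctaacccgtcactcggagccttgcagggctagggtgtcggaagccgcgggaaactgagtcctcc
Ncaph2: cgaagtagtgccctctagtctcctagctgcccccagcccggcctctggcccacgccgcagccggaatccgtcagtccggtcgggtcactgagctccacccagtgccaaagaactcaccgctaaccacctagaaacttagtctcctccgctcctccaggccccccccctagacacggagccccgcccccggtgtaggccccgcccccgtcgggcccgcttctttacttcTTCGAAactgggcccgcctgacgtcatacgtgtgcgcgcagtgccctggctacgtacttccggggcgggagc
Top2b: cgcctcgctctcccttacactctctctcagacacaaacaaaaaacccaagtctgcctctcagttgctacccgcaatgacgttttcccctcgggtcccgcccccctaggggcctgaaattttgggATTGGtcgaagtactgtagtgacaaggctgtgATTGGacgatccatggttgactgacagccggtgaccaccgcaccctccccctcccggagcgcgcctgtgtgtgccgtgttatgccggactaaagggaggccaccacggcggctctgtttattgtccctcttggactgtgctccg
Top2a held 4 CHR and 6 CCAAT matches, Ncapg 1 of each, Ncaph2 1 CHR match and no CCAAT, and Top2b 2 CCAAT matches and no CHR. A window was found for 9 of the 10 genes, and only the first window of each was counted. The shares set beside these counts are over every window, alternative starts included. Another Ncapd3 window, not counted, held a CHR match at -249. Of these 9, 6 held a CHR match, against 19.2% of 32851 RefSeq promoter windows, 5 held CCAAT, against 37.4%, and 4 held both, against 7.52%. The CHR match nearest to the start lay at -23 in Top2a, at -30 in Ncapg, at -18 in Ncapg2, at -22 in Ncaph2, at -123 in Ncapd2 and at 26 in Smc2, whose other match lay at -145, counted in bases from the start. The E2F motif, searched on both strands as TTTCGCGC, TTTGGCGC, TTTCCCGC or TTTGCCGC, was in 3 of the 9 (Ncapg, Ncapd2 and Ncapg2) and in 2.26% of all windows. These matches are letters in a window and were not tested for binding.

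The transcript on which the reading of Ncapd2 turned is shown next. Ncapd2-203 is a 682-base transcript that the annotation calls a retained intron, with 3 exons on the minus strand of chromosome 6 (125186100 to 125186595, 125185694 to 125185836 and 125184520 to 125184562, GRCm38). Its first 300 bases, chr6:125186296-125186595, follow 5′ to 3′, with capitals for the 237 bases that also belong to Scarna10, a small Cajal body RNA gene on the same strand.
Ncapd2-203: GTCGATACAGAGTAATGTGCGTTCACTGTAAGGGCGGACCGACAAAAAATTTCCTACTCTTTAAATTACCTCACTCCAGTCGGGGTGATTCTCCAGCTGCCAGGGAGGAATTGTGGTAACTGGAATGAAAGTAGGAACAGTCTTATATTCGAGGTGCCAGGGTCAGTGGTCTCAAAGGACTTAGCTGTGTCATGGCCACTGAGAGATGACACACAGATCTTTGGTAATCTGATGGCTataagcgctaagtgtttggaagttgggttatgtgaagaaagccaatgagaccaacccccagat
These 237 bases are 72.9% of the 325 bases of Scarna10. Exons of Ncapd2 also share 235 bases of this stretch (125186361 to 125186595) with Gm28967, annotated as a sense intronic gene on the same strand. No value of Scarna10 or Gm28967 was analysed here.

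At P20 the estimated genotype difference of the called condensin and topoisomerase genes had opposite signs on the 2 codes, and its size was graded over the 10 genes, from Top2a to Top2b. Only Top2a, Ncapg and Smc2 passed on both codes. The later-code estimates of Smc4 and Ncapd3 turned positive without P20 WT 1 (0.18 and 0.12). On the later code, 3 of the 10 genes were lower in Irx5KO-labelled libraries (Top2a, Ncapg and Smc2), where 0.411% of all genes tested were lower. On the earlier code, 7 of the 10 were higher in Irx5KO-labelled libraries (Top2a, Ncapg, Smc2, Ncapg2, Ncaph, Ncapd3 and Smc4), where 1.58% of all genes were higher. The median log2 difference over the 10 genes was -1.04 on the later and 2.52 on the earlier code, against -0.19 and -0.02 over all genes tested. The same 7 genes passed the test of the difference between the codes, where 1.88% of all genes were higher on the earlier code. Mki67, which coats mitotic chromosomes and marks dividing cells, was at 19.4 and 14.9 CPM in later-code Irx5KO-labelled libraries against 503 and 180 CPM in WT-labelled ones. On the earlier code it was at 1352 and 1515 CPM against 12.3 and 4.30 CPM. On both codes the label with more Irx5 had more Mki67, and the part of either in the values of the other was not tested. In these bulk libraries, fewer dividing cells and less RNA per dividing cell cannot be told apart.

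**Figure D1:**
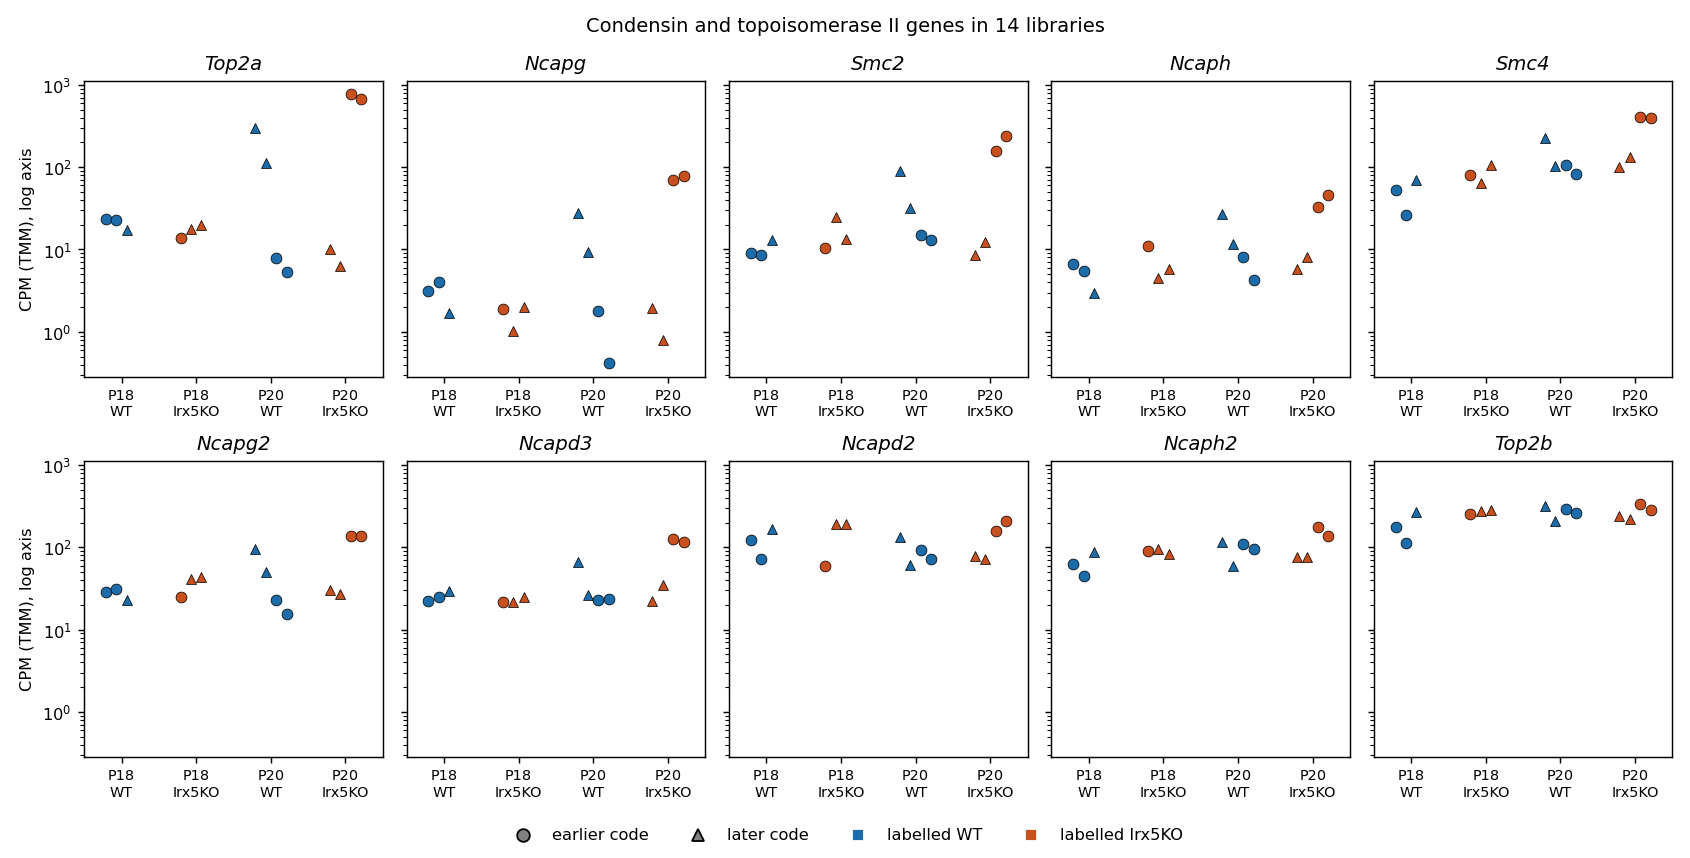
Level of each gene in the 14 libraries, in CPM with TMM scaling on a log axis, by age and labelled genotype; each point is 1 library, circles have the earlier and triangles the later code of their age. Top2a spans 5.33 to 764 CPM, with its highest points in P20 Irx5KO 3 and 4 and P20 WT 1 and 2, while Top2b spans 114 to 333 CPM.

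Both genes of the shared ATPase core passed on the earlier code. Gene positions here and below are on mm10. Smc2 (chromosome 4, 52439243 to 52488260, plus strand) was at 8.64 and 12.2 CPM in later-code Irx5KO-labelled libraries against 91.1 and 31.8 CPM in WT-labelled ones, and at 156 and 240 CPM in earlier-code Irx5KO-labelled libraries against 15.2 and 13.2 CPM in WT-labelled ones. The labels did not overlap on either code and were crossed between them. With 2 libraries against 2, the share of all genes without overlap was not counted, here or below. Its log2 difference, labelled Irx5KO minus labelled WT, was -2.56 (SE 0.46, edgeR adjusted p = 0.0128) on the later code and 3.80 (SE 0.46, edgeR adjusted p = 8.5e-05) on the earlier code. Smc4 (chromosome 3, 69004738 to 69034623, plus strand) was at 101 and 133 CPM against 226 and 104 CPM on the later code, where the labels overlapped, and at 409 and 395 CPM against 107 and 83.1 CPM on the earlier code, where they did not. Its log2 difference was -0.49 (SE 0.46, edgeR adjusted p = 1) and 2.08 (SE 0.46, edgeR adjusted p = 0.0141). Leaving out WT 3 or WT 4 ended the call of Smc4 on the earlier code (edgeR adjusted p = 0.110 and 0.165), and leaving out Irx5KO 1, Irx5KO 2 or WT 1 ended that of Smc2 on the later code (edgeR adjusted p = 0.338, 0.214 and 0.144).

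Among the subunits of condensin I, Ncapg moved most. Ncapg (chromosome 5, 45669919 to 45700546, plus strand), a HEAT-repeat subunit, was at 1.93 and 0.80 CPM in later-code Irx5KO-labelled libraries against 27.5 and 9.38 CPM in WT-labelled ones, and at 69.9 and 78.8 CPM in earlier-code Irx5KO-labelled libraries against 1.80 and 0.416 CPM in WT-labelled ones. The labels did not overlap on either code. The lowest of these values rests on 6 estimated counts, in P20 WT 4. The log2 difference of Ncapg was -3.75 (SE 0.62, edgeR adjusted p = 0.0128) on the later and 6.01 (SE 0.64, edgeR adjusted p = 8.5e-05) on the earlier code. Its later-code call also ended without Irx5KO 1, Irx5KO 2 or WT 1 (edgeR adjusted p = 0.0612, 0.326 and 0.112). The same call ended with transcript length offsets (-3.18, edgeR adjusted p = 0.136) and with voom (-3.67, voom adjusted p = 0.358). Ncaph (chromosome 2, 127103809 to 127133954, minus strand), the kleisin that closes the ring, was at 5.77 and 8.00 CPM against 27.0 and 11.6 CPM on the later code and at 32.8 and 46.3 CPM against 8.08 and 4.30 CPM on the earlier code. The labels did not overlap on either code, but Ncaph passed on the earlier code only (2.67, SE 0.51, edgeR adjusted p = 0.0052) and not on the later one (-1.49, SE 0.51, edgeR adjusted p = 0.544), and without WT 4 the first call ended (edgeR adjusted p = 0.0965). Ncapd2 (chromosome 6, 125168007 to 125191701, minus strand), the other HEAT-repeat subunit, was at 79.2 and 71.7 CPM against 134 and 60.4 CPM on the later code and at 158 and 211 CPM against 93.7 and 71.4 CPM on the earlier code. The labels overlapped on the later code only. Summed over its transcripts Ncapd2 passed on neither code (-0.37, SE 0.44, edgeR adjusted p = 1, and 1.16, SE 0.44, edgeR adjusted p = 0.174). It did pass on the earlier code with RLE scaling (1.29, adjusted p = 0.016), TMM over well expressed genes (0.0112), no filter (0.0033), DESeq2 (3.5e-04), voom (0.019) and without the receptor-rich libraries (7.6e-04), so this call depends on the setting, and with transcript length offsets the sign there turned (-0.11).

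The condensin II genes held both moving and steady members. Ncapg2 (chromosome 12, 116405402 to 116463731, plus strand), a HEAT-repeat subunit, was at 30.1 and 27.2 CPM in later-code Irx5KO-labelled libraries against 96.9 and 49.6 CPM in WT-labelled ones, and at 137 and 139 CPM in earlier-code Irx5KO-labelled libraries against 22.8 and 15.6 CPM in WT-labelled ones. The labels did not overlap on either code. Ncapg2 passed on the earlier code (2.84, SE 0.39, edgeR adjusted p = 2.3e-04) and not on the later one (-1.35, SE 0.39, edgeR adjusted p = 0.264). There it did pass with RLE scaling (adjusted p = 0.0388), TMM over well expressed genes (0.0401), no filter (0.0036) and DESeq2 (6.4e-04). It also passed there without P18 WT 1, P18 WT 3 or P18 Irx5KO 2, so this call depends on the setting. The later-code difference was -1.63 without the receptor-rich libraries and -1.70 without P20 WT 2, which both leave only WT 1 of that label. Ncapd3 (chromosome 9, 27030175 to 27095315, plus strand), the other HEAT-repeat subunit, was at 22.2 and 34.5 CPM against 67.1 and 26.1 CPM on the later code, where the labels overlapped, and at 127 and 116 CPM against 23.1 and 23.8 CPM on the earlier code. Its log2 difference was -0.72 (SE 0.42, edgeR adjusted p = 0.936) and 2.37 (SE 0.42, edgeR adjusted p = 0.0024), the latter lost without WT 3 (edgeR adjusted p = 0.0547). Ncaph2 (chromosome 15, 89355719 to 89372826, plus strand), the kleisin of condensin II, was at 76.5 and 77.1 CPM against 115 and 60.0 CPM on the later code and at 177 and 136 CPM against 109 and 95.9 CPM on the earlier code. The labels overlapped on the later code only. Ncaph2 passed on neither code (-0.19, SE 0.40, edgeR adjusted p = 1, and 0.61, SE 0.40, edgeR adjusted p = 0.52), though with DESeq2 it passed on the earlier one (0.74, adjusted p = 0.0271). The exons of Ncaph2 share 829 bases with Sco2 and 535 with Tymp on the opposite strand, and without a stated strand setting their reads cannot be told apart.

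The 2 topoisomerase II genes lay at the ends of the range. Top2a (chromosome 11, 98992943 to 99024189, minus strand) was at 10.3 and 6.34 CPM in later-code Irx5KO-labelled libraries against 298 and 112 CPM in WT-labelled ones, and at 764 and 678 CPM in earlier-code Irx5KO-labelled libraries against 7.77 and 5.33 CPM in WT-labelled ones. The labels did not overlap on either code, and none of the other 9 genes moved as far, with log2 differences of -4.62 (SE 0.46, edgeR adjusted p = 1.2e-04) and 6.78 (SE 0.46, edgeR adjusted p = 1.0e-06). Top2b (chromosome 14, 16365179 to 16435462, plus strand) was at 241 and 224 CPM against 319 and 208 CPM on the later code and at 333 and 287 CPM against 290 and 259 CPM on the earlier code. The labels overlapped on both codes, and neither difference passed (-0.18, SE 0.42, and 0.17, SE 0.42, edgeR adjusted p = 1 each). Over well expressed genes (a mean of 8 CPM or more) the median was -0.11 on the earlier code, 0.04 on the later one and -0.17 for the difference between codes. Exons of Top2b share 1793 bases with Rarb on the opposite strand. Those of Ncapg share 944 bases with Lcorl on the opposite strand, and those of Top2a 122 with the snoRNA gene Gm23451 on the same strand.

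**Figure D2:**
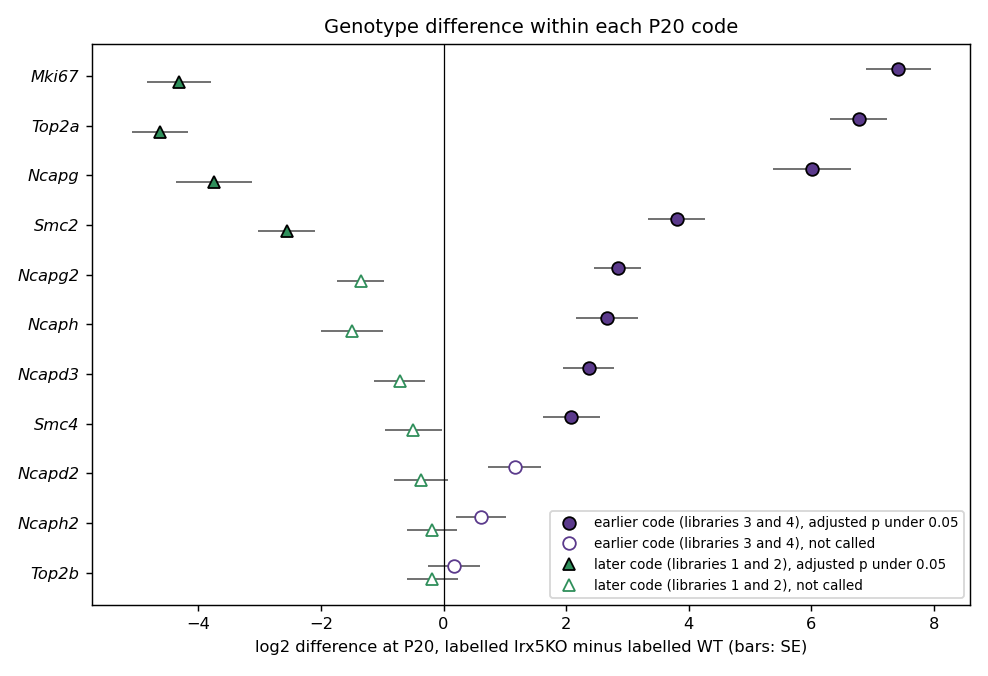
Log2 difference, labelled Irx5KO minus labelled WT, within each P20 code for the 10 genes and Mki67, with bars of 1 SE; circles are the earlier and triangles the later code, and filled symbols passed at an adjusted p under 0.05. Top2a lies at -4.62 and 6.78, Top2b at -0.18 and 0.17.

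The difference between the codes was tested for each gene as the earlier-code effect minus the later-code effect. It was 11.40 for Top2a (SE 0.65, edgeR adjusted p = 3.4e-08), 9.76 for Ncapg (SE 0.90, edgeR adjusted p = 6.5e-06) and 6.36 for Smc2 (SE 0.65, edgeR adjusted p = 5.2e-06). It was 4.19 for Ncapg2, 4.16 for Ncaph, 3.09 for Ncapd3 and 2.57 for Smc4, with edgeR adjusted p between 6.9e-05 and 0.0296. The 3 that missed the threshold were Ncapd2 (1.53, SE 0.62), Ncaph2 (0.80, SE 0.57) and Top2b (0.36, SE 0.59), with edgeR adjusted p of 0.228, 0.619 and 0.973. Ncapd2 did pass with RLE scaling (adjusted p = 0.0202), TMM over well expressed genes (0.0146), no filter (0.0046), DESeq2 (0.001) and without the receptor-rich libraries (6.9e-04), and Ncaph2 did with DESeq2 (0.0439). Leaving out any of 5 P20 libraries in turn (Irx5KO 1, Irx5KO 2, WT 1, WT 3 or WT 4) ended the call of Smc4 (edgeR adjusted p between 0.0658 and 0.167).

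At P20 the long transcript of Ncapd2 passed on both codes, and its short transcripts passed on neither. For this comparison the transcripts of every gene were split, after the values had been seen, into long ones (at least 0.5 of the length of the gene's longest) and short ones, and fitted as 35449 separate features with their own scaling. Ncapd2 has 1 long transcript, the protein-coding Ncapd2-201. It was at 7.57 and 2.25 CPM in later-code Irx5KO-labelled libraries against 50.7 and 25.2 CPM in WT-labelled ones, and at 96.7 and 143 CPM in earlier-code Irx5KO-labelled libraries against 8.25 and 7.58 CPM in WT-labelled ones. The labels did not overlap on either code. The long transcript was lower on the later code by a log2 difference of -2.95 (SE 0.51, edgeR adjusted p = 0.036) and higher on the earlier code by 3.92 (SE 0.51, edgeR adjusted p = 0.0012). The short transcripts of Ncapd2 were at 70.0 and 68.0 CPM against 73.5 and 42.6 CPM on the later code and at 52.3 and 59.1 CPM against 82.9 and 62.4 CPM on the earlier code. Their log2 differences were 0.25 (SE 0.35, edgeR adjusted p = 1) and -0.38 (SE 0.35, edgeR adjusted p = 0.672).

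Ncapd2-203, whose sequence is shown above, took 22.9% to 96.6% of the estimated counts of Ncapd2, with a median over the 14 libraries of 87.9%. Ncapd2-201 took 64.9% and 70.8% in P20 Irx5KO 3 and 4, 40.8% and 37.1% in P20 WT 1 and 2, and 2.57% to 12.0% in the other libraries. Whether counts placed on Ncapd2-203 came from the Scarna10 stretch was not tested. At P18 the long transcript was at 6.55, 4.87 and 6.91 CPM in Irx5KO-labelled libraries and at 10.4, 7.63 and 8.80 CPM in WT-labelled ones, whereas the short transcripts were at 48.2, 185 and 172 CPM and at 123, 85.3 and 159 CPM.

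**Figure D3:**
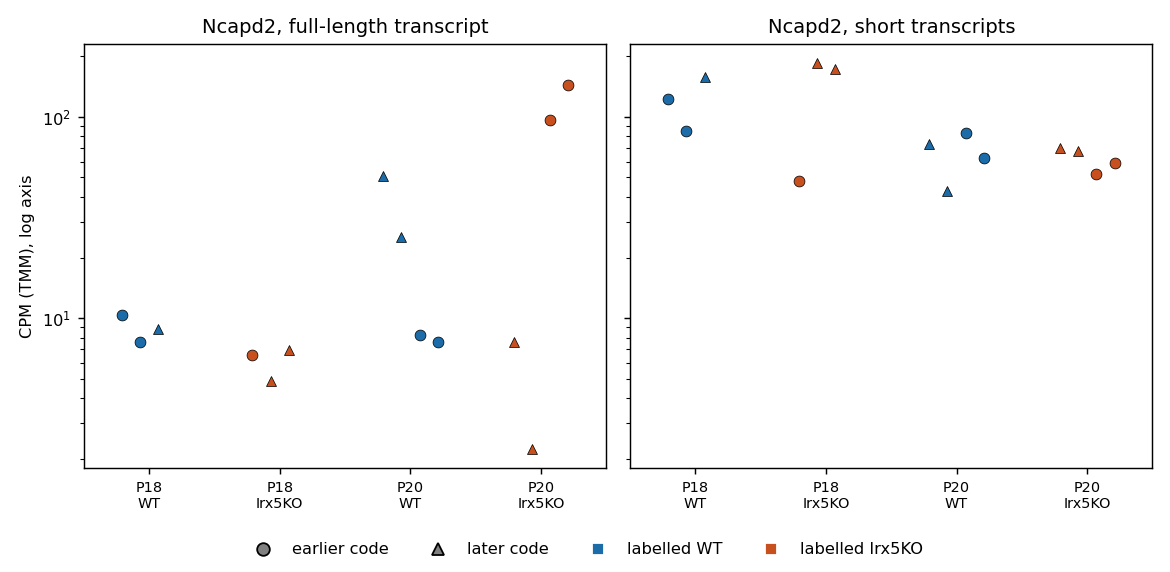
Level of the full-length Ncapd2 transcript (left) and of all shorter Ncapd2 transcripts (right) in the 14 libraries, in CPM on a log axis, by age and labelled genotype; each point is 1 library and shapes give the code. The full-length transcript spans 2.25 to 143 CPM and is highest in P20 Irx5KO 3 and 4, and the shorter ones span 42.6 to 185 CPM and are highest at P18.

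In the same fit, the long transcripts of 4 of the 10 genes were lower on the later code (Top2a, Ncapg, Ncapd2 and Smc2), where 0.203% of features were lower. Those of 8 were higher on the earlier code, where 1.01% were higher, and the same number passed the difference between codes, where 1.28% did. The 2 whose long transcripts passed in none of the 3 comparisons were Ncaph2 and Top2b. Among short transcripts none of the 10 genes passed on the later code, and 2 (Smc4 and Top2a) were higher on the earlier code. The long Ncaph2 transcripts differed by a log2 of -0.28 (SE 0.34) and 0.47 (SE 0.34), and those of Top2b by -0.20 (SE 0.32) and 0.12 (SE 0.32). Counts moved between the near-identical long Smc4 transcripts from library to library, so only their sum is used.

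With both codes pooled, none of the 10 genes passed between the labels at P20, where 0% of all genes passed. Over the 4 libraries of each label, Top2a was at 365 ± 413 CPM in Irx5KO-labelled ones and 106 ± 137 CPM in WT-labelled ones (SD), a log2 difference of 1.06 (SE 1.64, edgeR adjusted p = 1). Smc4 was at 260 ± 165 and 130 ± 65.0 CPM (0.80, SE 0.45, edgeR adjusted p = 0.955). At an unadjusted p under 0.05, 1004 of 24592 genes and none of the 10 were found. Without the 4 earlier-code libraries, where Irx5 goes against the labels, 3 of the 10 passed (Smc2, Ncapg and Top2a), as did 119 of 27599 genes, and the Top2a difference was -4.62. With voom and all libraries the same 3 passed, as did 126 of 24592 genes. The Top2a difference then had the opposite sign, at 6.12 (voom adjusted p = 0.0057).

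At P18 none of the 10 genes passed between the labels, where 0% of all genes passed and 1195 had an unadjusted p under 0.05, none of them among the 10. Each of the 10 overlapped between the labels, and the share of all genes that did so was not counted. Top2a was at 13.6, 17.6 and 19.8 CPM in Irx5KO-labelled libraries and at 23.5, 22.6 and 17.2 CPM in WT-labelled ones, which overlapped. Its log2 difference was -0.32 (SE 2.02, edgeR adjusted p = 0.988), and it was positive, at 0.07 and 0.13, without the 3 receptor-rich libraries and without Irx5KO 1. Ncapg was at 1.87, 1.03 and 1.99 CPM against 3.17, 4.01 and 1.69 CPM, and Smc2 at 10.4, 25.1 and 13.3 CPM against 8.96, 8.68 and 13.1 CPM. The kleisin gene Ncaph was at 11.1, 4.49 and 5.83 CPM against 6.71, 5.46 and 2.95 CPM (0.84, SE 0.79, edgeR adjusted p = 0.841). Ncapd3 was at 21.9, 21.6 and 25.1 CPM against 22.1, 24.8 and 29.7 CPM, and Ncapg2 at 25.2, 41.9 and 43.2 CPM against 28.6, 31.4 and 22.8 CPM. Summed Ncapd2 was at 58.7, 192 and 194 CPM against 124, 73.2 and 169 CPM. Smc4, Ncaph2 and Top2b were lower in the receptor-rich WT 1 and WT 2 than in any other P18 library. Smc4 was at 80.9, 63.7 and 106 CPM against 52.8, 26.5 and 70.5 CPM, and Ncaph2 at 90.6, 96.1 and 83.1 CPM against 62.4, 45.2 and 88.9 CPM. Top2b was at 255, 280 and 284 CPM against 177, 114 and 268 CPM. With TMM scaling the median over well expressed genes was itself 0.35 at P18, and 0.01 when TMM was computed over those genes alone, and the median of the 10 genes, 0.35, is to be read against it. Neither DESeq2 nor voom called any of the 10 at P18. Within each P18 code, none of the 10 passed and 0.00407% of all genes did; each code has 1 library of one label, which is assumed to vary like the other groups. On the earlier P18 code the genes called were 1, against 795 with no filter, 363 with DESeq2 and 1160 without WT 1, which leaves 1 library of each label.

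Across ages, none of the 10 passed between P20 and P18 in WT-labelled libraries, where 0% of all genes did, or in Irx5KO-labelled ones, where 0.411% did. In WT-labelled libraries, 2499 genes (10.2%) and 1 of the 10 had an unadjusted p under 0.05, and in Irx5KO-labelled ones 2849 genes (11.6%) and 6 of the 10 did. Each age had its own codes, so age and code cannot be told apart. With TMM scaling the median over well expressed genes was 0.42 between ages in WT-labelled libraries and -0.37 for the P20 minus the P18 genotype effect. The Top2a log2 difference, P20 minus P18, was 2.33 (SE 1.60, edgeR adjusted p = 0.704) in WT-labelled libraries and 4.42 (SE 1.60, edgeR adjusted p = 0.418) in Irx5KO-labelled ones, and that of Smc4 was 1.38 (SE 0.49, edgeR adjusted p = 0.354) and 1.64 (SE 0.49, edgeR adjusted p = 0.202). With DESeq2, 5 of the 10 passed in Irx5KO-labelled libraries (Smc2, Smc4, Ncapg, Ncapd3 and Top2a), where 1390 of 24592 genes passed. At P20 each label joins libraries with high and with low Top2a. The genotype effect at P20 minus that at P18 passed for none of the 10 or of all genes (0%, and 448 genes at an unadjusted p under 0.05), with 1.37 (SE 2.60, edgeR adjusted p = 1) for Top2a.

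Levels of different genes were compared as TPM (transcript levels scaled by length and library total). Top2b had a median of 68.8 TPM over the 14 libraries (52.9 to 93.9) and Top2a one of 7.18 TPM (1.14 to 164). The ratio of Top2a to Top2b was 0.0533 and 0.0460 in P20 Irx5KO 1 and 2, 0.836 and 0.672 in P20 WT 1 and 2, 1.75 and 1.97 in P20 Irx5KO 3 and 4, and 0.0221 and 0.0177 in P20 WT 3 and 4. Over all transcripts Top2a thus exceeded Top2b in 2 of the 14 libraries. Over long transcripts alone it did so in 4, with ratios of 2.26 and 1.21 in P20 WT 1 and 2 and 5.36 and 5.38 in P20 Irx5KO 3 and 4. At P18 the ratio lay between 0.0662 and 0.280. The log2 ratio was -1.72 ± 3.02 in P20 Irx5KO-labelled libraries and -3.04 ± 3.03 in WT-labelled ones (SD, n = 4 each, exact permutation test, two-sided, p = 0.514, where 0.0286 is the smallest p possible). At P18 it was -3.56 ± 0.51 and -2.83 ± 0.96 (SD, n = 3 each, exact permutation p = 0.2, where 0.1 is the smallest p possible).

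**Figure D4:**
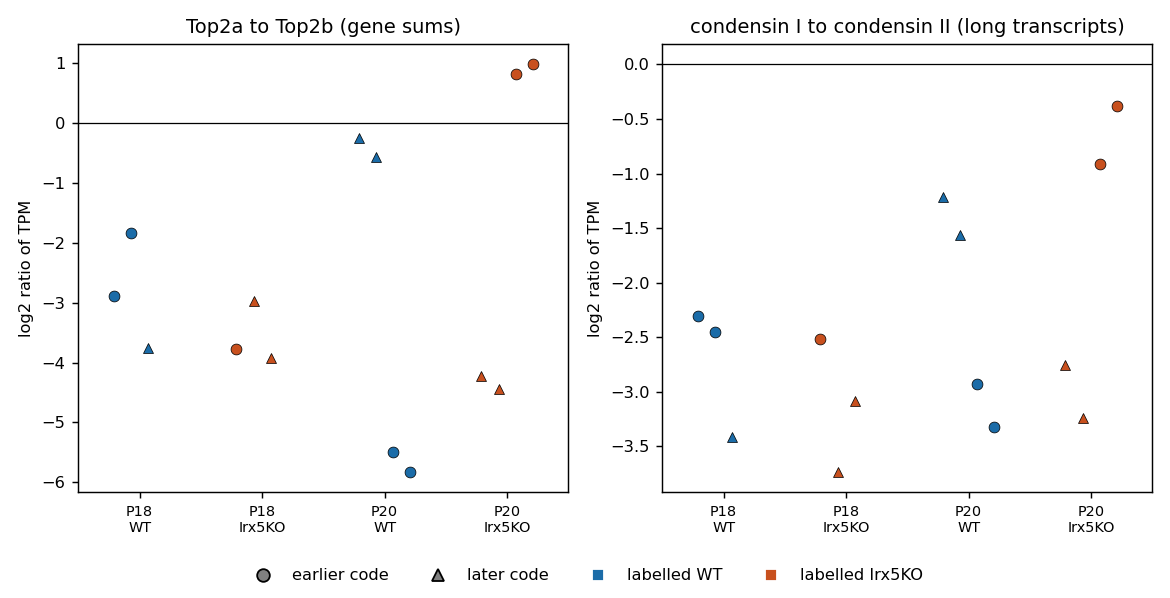
Log2 ratio in TPM of Top2a to Top2b over all transcripts (left) and of the condensin I to the condensin II subunits over long transcripts (right), by age and labelled genotype; each point is 1 library and shapes give the code. Over all transcripts the log2 ratio of Top2a to Top2b is above 0 in P20 Irx5KO 3 and 4 only (over long transcripts, not drawn, also in P20 WT 1 and 2, at 1.17 and 0.28), and the condensin ratio is highest in the same 2 libraries, at -0.92 and -0.38.

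The own subunits of condensin I (Ncapd2, Ncapg and Ncaph) were set against those of condensin II (Ncapd3, Ncapg2 and Ncaph2) as summed TPM. Over all transcripts the log2 ratio was 0.63 ± 0.62 in P20 Irx5KO-labelled libraries and 0.92 ± 0.42 in WT-labelled ones (SD, n = 4 each, exact permutation p = 0.486, smallest possible 0.0286). At P18 it was 1.57 ± 0.92 and 1.71 ± 0.66 (SD, n = 3 each, exact permutation p = 0.8, smallest possible 0.1). These ratios hold mostly the short Ncapd2 transcripts. Over long transcripts alone, an alternative added after the values were seen, the log2 ratio was -2.76 and -3.24 in P20 Irx5KO 1 and 2, -1.21 and -1.56 in P20 WT 1 and 2, -0.92 and -0.38 in P20 Irx5KO 3 and 4, and -2.93 and -3.32 in P20 WT 3 and 4. It was highest in Irx5KO 3 and 4 and next in WT 1 and 2. Between the labels at P20 the means were -1.82 ± 1.39 and -2.26 ± 1.03 (SD, n = 4 each, exact permutation p = 0.571), with the sign opposite to that over all transcripts.

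The spread over the 14 libraries orders the 10 genes without reference to the labels. The SD of log2 CPM was 2.43 for Top2a, 2.30 for Ncapg, 1.60 for Smc2, 1.17 for Ncaph, 1.07 for Smc4, 0.98 for Ncapg2, 0.90 for Ncapd3, 0.67 for Ncapd2, 0.50 for Ncaph2 and 0.40 for Top2b. Likeness of pattern was measured as the root mean square difference of centred log2 CPM over the 14 libraries, among 13150 genes and with the 10 left out. Nearest to Top2a were Mki67 (0.42), Tpx2, a spindle assembly factor (0.51), Hist1h2af, a replication-dependent histone gene (0.53), Kif11, a spindle motor (0.56), and Bub1b, a spindle checkpoint kinase (0.56). Nearest to Ncaph2 were Anapc1, a subunit of the anaphase-promoting complex (0.10), the chromatin remodelling gene Smarcc1, the nuclear pore gene Nup188, Ap2a1 and Med14 (0.13 to 0.14). Nearest to Top2b were Ccdc47, Tmed2, Mib1, M6pr and Ap3b1 (0.10 to 0.14). Among the 10 themselves, Top2a was nearest to Ncapg (0.51) and Ncaph2 to Top2b (0.23). These measures are descriptions over libraries that share their scaling, and have no test.

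Genes that work with the condensins and topoisomerases were read from fixed lists. Of 15 regulators and partners of condensin and topoisomerase II, 2 were lower on the later code at P20 (Mki67 and Incenp) and 11 higher on the earlier code, with medians of -1.55 and 4.30. Of all genes tested, 0.411% were lower on the later code and 1.58% higher on the earlier code. On the later code Mki67 differed by -4.32 (SE 0.52, edgeR adjusted p = 7.9e-04) and Incenp, the scaffold of the chromosomal passenger complex, by -2.34 (SE 0.46, edgeR adjusted p = 0.0257). On the earlier code Mki67 differed by 7.42, Cdk1, the mitotic kinase that phosphorylates condensin, by 4.82, and Birc5, a passenger complex subunit, by 5.13 (edgeR adjusted p = 1.7e-06, 1.4e-05 and 9.2e-05). The remaining called genes are given by their number.

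Of 16 cohesin genes, whose complex holds sister chromatids together, none passed on the later code, with medians of 0.07 there and 0.46 on the earlier code. On the earlier code 5 were higher (Espl1, Esco2, Sgo1, Pttg1 and Cdca5), where 1.58% of all genes were higher. These 5 act on cohesin during replication and mitosis. The ring subunits Smc1a, Smc3 and Rad21, named after their values were seen like Cdca5, did not pass, with log2 differences of 0.56, 0.37 and 0.85 on the earlier code. None of the 6 genes of the SMC5/6 complex, which acts in DNA repair, passed on either code; its most abundant genes, Smc5 and Smc6, differed by 0.14 and 0.43 on the earlier code. Of 4 other topoisomerase genes, Top1mt, the mitochondrial type I enzyme, was lower on the earlier code (-1.63, SE 0.40, edgeR adjusted p = 0.0226) and none passed on the later code. On the earlier code 1028 of 24592 genes passed in either direction, 388 of them higher and the rest lower. The nuclear type I gene Top1 was at means of 375 CPM in Irx5KO-labelled libraries and 473 CPM in WT-labelled ones on the earlier code (-0.34, SE 0.57, edgeR adjusted p = 0.941).

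Reference genes of mitosis and replication moved with the same codes, where 0.411% of all genes were lower on the later and 1.58% higher on the earlier code. Of 15 mitosis genes, 9 were lower on the later code and 14 higher on the earlier code, with medians of -3.19 and 6.27. Among them Cenpf, a kinetochore protein, differed by -3.72 and 8.00, and Bub1b by -4.02 and 7.66 (edgeR adjusted p = 8.8e-04 and 9.0e-07, and 6.9e-04 and 9.0e-07). Of 15 replication genes, 3 were lower on the later code (Mcm2, Mcm3 and Mcm5, subunits of the replicative helicase) and 10 higher on the earlier code, with medians of -1.13 and 2.11. No gene of the 6 lists passed between the labels at P18 or, with codes pooled, at P20.

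Markers of other cells were read beside these results at raw library sizes. In P20 Irx5KO- and WT-labelled libraries, 5 myeloid and Langerhans cell markers summed to 17.6 to 128 and 21.6 to 69.3 CPM, 3 T cell markers to 4.42 to 27.0 and 4.80 to 28.8 CPM, and 4 fibroblast markers to 44.5 to 324 and 117 to 222 CPM. The 4 suprabasal markers summed to 670 to 3384 and 235 to 1131 CPM, and the 3 hair germ markers (Cdh3, Gli1 and Lef1) to 228 to 594 and 348 to 418 CPM. Of the hair germ markers, Gli1, a Hedgehog target, moved with Top2a on both codes (-1.91, SE 0.40, edgeR adjusted p = 0.0388 on the later and 1.90, SE 0.40, edgeR adjusted p = 0.0096 on the earlier code). Cdh3 and Lef1 passed on neither code and did not move with it. In order of size, their 2 estimates were -0.0085 and 0.93 on the later code and -1.64 and -0.65 on the earlier code. Infundibulum markers summed to 109 to 465 and 118 to 517 CPM, sebaceous gland markers to 52.5 to 303 and 62.2 to 191 CPM, melanocyte markers to 11.4 to 12.9 and 6.24 to 26.4 CPM, endothelial markers to 3.68 to 26.8 and 5.70 to 27.8 CPM, and hair matrix and shaft markers to 25.2 to 58.0 and 18.1 to 106 CPM. On the earlier code, 3 of the 4 fibroblast markers were lower in Irx5KO-labelled libraries by their estimates (median -1.62). Pdgfra passed (means of 0.0743 against 3.60 CPM with TMM scaling, as for the next values, -5.65, SE 1.46, edgeR adjusted p = 0.0205), Dcn (-2.31) and Col1a2 (-0.93) did not, and neither did Col1a1 (1.03), the most abundant. The sebaceous gland marker Scd3 was also lower (0.407 against 3.75 CPM, edgeR adjusted p = 0.0014), as was the endothelial Kdr (0 against 0.806 CPM, edgeR adjusted p = 0.0363). Of the 3 sebaceous gland markers only Scd3 passed, and 1 had a positive estimate (0.95). At raw library sizes their sum was higher in P20 Irx5KO 3 and 4 (168.6 and 104.6 CPM) than in P20 WT 3 and 4 (62.16 and 63.15 CPM). No marker was at 0 in every library, and the part of these cells in the results was not tested. Of the 9 bulge markers themselves, none passed on either P20 code. By their estimates 8 were higher in Irx5KO-labelled libraries on the later code (median 0.30) and all 9 lower on the earlier code (median -0.47). The medians over well expressed genes were 0.04 and -0.11.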

How the data were processed

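Single-end reads of 14 libraries were quantified by kallisto 0.46.2 against transcripts, per the labels' protocols, and the submitters' processing notes also name mm10 and DESeq2. The authors deposited, per the file headers, an estimated count and a TPM value (transcripts scaled by length and library total) for each of 118489 transcripts and library. Of these, 116816 were matched to GENCODE vM21 genes and 1673 were not, which held 1.19% to 2.59% of a library's counts. Estimated counts were summed per gene, rounded and fitted with edgeR 4.0.16 in R 4.3.3 (TMM scaling, default expression filter by group, robust quasi-likelihood test, all 14 libraries). Genotype effects at each age had the code as a covariate, effects within a code came from 1 coefficient per age, code and genotype, and age effects had no covariate. SE values are Wald standard errors. The p-values were adjusted by Benjamini-Hochberg across the 24592 genes tested, and a gene was called under 0.05. On data simulated for the later-code P20 comparison over 22837 genes, 59 of 100 genes changed by a log2 of 2 and 97 of 100 changed by 4 were recovered. In the same run 10 unchanged genes were called. The changed genes had a mean of at least 8 CPM, and no code or age difference was simulated.

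The 10 genes, the lists and the tests were chosen with earlier results of these data known. The text names all 10 genes, Irx5 and Mki67, and from each list up to 4 genes with the smallest p, or the most abundant where none passed; genes beyond this are said to be named after their values were seen. Alternatives were RLE scaling, TMM over well expressed genes, no filter, DESeq2 1.42.0, voom in limma 3.58.1, length offsets, no code term, the replicate number as a block, and leaving out each library. Added after seeing the data were long transcripts only and fits without 3 receptor-rich or 4 earlier-code P20 libraries. Libraries sharing a replicate number deviated together at P18 (correlations 0.37, 0.17 and 0.27, from the data and not the labels).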

Additional observations from a re-analysis of the deposited data

Results flagged for a closer look

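In 2 genes, 1 library stood apart within the 4 WT-labelled P20 libraries by the gap between it and its nearest neighbour. Smc4 was at 226 CPM in P20 WT 1, and the other 3 lay between 83.1 and 107 CPM. Ncapd3 was at 67.1 CPM in the same library, and the other 3 lay between 23.1 and 26.1 CPM. Chance flags about 1 in 20 groups in this way.

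The genotype effect differed between the P20 codes, by a test of the difference itself, for 7 of the 10 genes and for 1 transcript. As the earlier-code minus the later-code effect on the log2 scale, the difference was 11.40 for Top2a, 9.76 for Ncapg, 6.36 for Smc2, 4.19 for Ncapg2, 4.16 for Ncaph, 3.09 for Ncapd3 and 2.57 for Smc4. It was 6.87 for the long Ncapd2 transcript.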

How the results depend on the processing

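The count of the 10 genes that passed on the later P20 code was 3 and lay between 1 and 4 when 1 library was left out. It was 1 (Top2a) with voom and without Irx5KO 1, Irx5KO 2 or WT 1. On the earlier code the count was 7, and 5 to 8 with 1 library left out, and for the difference between codes it was 7, and 6 to 8. With codes pooled at P20 the count rose from 0 to 3 with voom and without the earlier-code libraries (Smc2, Ncapg and Top2a each time). The 2 settings put Top2a in opposite directions, at 6.12 with voom and at -4.62 without the earlier-code libraries. Among all genes, 126 of 24592 and 119 of 27599 passed there. Between ages in WT-labelled libraries the count was 3 with voom (Smc4, Ncaph2 and Top2b), where 16167 of 24592 genes passed. Without the earlier-code libraries it was 2 there (Smc2 and Top2a), where 105 of 27599 genes passed. In Irx5KO-labelled ones it was 5 with DESeq2, where 1390 of 24592 genes passed. For the difference between ages it was 1 without the earlier-code libraries (Top2a), where 26 of 27599 genes passed.

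On the later code, log2 differences turned positive without WT 1 for Smc4 (range with 1 library left out -0.89 to 0.18), Ncapd2 (-0.77 to 0.32), Ncapd3 (-1.18 to 0.12), Ncaph2 (-0.52 to 0.35) and Top2b (-0.40 to 0.15). Length offsets turned summed Ncapd2 to 0.15 on the later code, -0.11 on the earlier one and -0.26 for their difference. Top2a at P18 was 0.074 without the receptor-rich libraries and ran from -1.32 to 0.13. Without the earlier-code libraries, Top2a was -4.62 at P20, -4.33 for the difference between ages and -1.04 between ages in Irx5KO-labelled libraries, and Smc4 was -0.49 at P20. With 1 library left out, Top2a ran from -3.03 to 5.16 at P20 and from -2.71 to 5.48 for the difference between ages, negative without WT 3 or WT 4. With voom, Top2a between ages in WT-labelled libraries was -0.76. The condensin I to II difference in log2 ratio was -0.14 at P18 and ran from -0.49 to 0.39, positive without Irx5KO 1 (0.39) or WT 3 (0.16). At P20 it was -0.29, ran from -0.45 to 0.0065, and was 0.019 as a mean of log2 values and 0.43 over long transcripts. The causes were not tested.

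Genes called among all tested on the later code were 116, against 665 with no filter, 463 with DESeq2, 11 with voom, 209 without the receptor-rich libraries, 15, 42 and 43 without P20 Irx5KO 2, Irx5KO 1 or WT 1, and up to 393 (without P18 WT 1) with 1 library left out. On the earlier code they were 1028, against 2109, 2647, 1956 and 1863 and, with 1 library left out, 415 (P20 WT 3) to 1845 (P18 WT 1), and for the difference between codes 965, against 2021, 2404 and 1516 with no filter, DESeq2 and the receptor-rich libraries left out, and 510 to 1742 with 1 library left out. Between labels at P18 they were 0, against 117 with no filter and 23 with DESeq2, and at P20 0, against 226, 104, with voom 126 and without the earlier-code libraries 119. Between ages they were 101 in Irx5KO-labelled libraries, against 284 to 1390 under 7 settings, 105 and 106 with long transcripts and length offsets and 28 (P18 Irx5KO 3) to 322 (P18 WT 3) with 1 library left out, and 0 in WT-labelled ones, against up to 16167 with voom and 0 to 220 with 1 library left out. With the replicate number as a block, the counts of the 10 genes were the same, 0 at P18, 0 at P20, 3 and 7 within codes, 7 for the difference between codes and 0 for that between ages. At P20 the correlations of same-numbered libraries were 0.00, 0.34, 0.09 and 0.27. Irx5KO 2 and 4 were closest there to the WT library of their number, but Irx5KO 1 and 3 were closest to WT 2 and WT 4. Whether the numbers pair libraries is not stated. The block moved the pooled P20 count over all genes from 0 to 1. Depth limits Ncapg most, whose lowest library had 6 counts.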
